A study of Mus musculus with 16 samples.

Results

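The 10 Frizzled receptor genes of the mouse, Fzd1 to Fzd10, were followed in the cortical bone of 16 femurs. They were taken by symbol from the 36829 features for which the deposited files give a value in each mouse, and all 10 symbols are listed once. The bone came from female C57Bl/6 mice aged 11 weeks, of which 8 bore weight normally (Control 1 to 8) and 8 had their hindlimbs unloaded for 7 days (HLU 1 to 8) by a tail harness that keeps the hind feet off the floor. The labels and the methods name no engineered allele, and the HLU mice were put in the harness under isoflurane, with nothing said of anesthesia in controls. The bone ends were cut off and the marrow was flushed out before the RNA was isolated, and each mouse gave its own RNAseq library. All cells left in the shaft contribute to a library. Transcript abundance is given as RPKM, a read count scaled to gene length and to library size.

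Frizzled proteins span the membrane and hold a cysteine-rich domain outside the cell, which binds the lipid that Wnt proteins carry. With the coreceptor Lrp5 or Lrp6 a Frizzled receptor passes the signal to Dishevelled, β-catenin escapes destruction, and target genes are switched on. Without these coreceptors some Wnt proteins act through Frizzled receptors on cell polarity and on the cytoskeleton. In bone, Wnt signaling promotes osteoblast formation, and osteocytes restrain it by secreting sclerostin, which blocks Lrp5 and Lrp6.

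The number of reads by which RPKM values had been divided ranged from 7067512 (Control 2) to 21363584 (HLU 6), a 3.02-fold range, and did not differ between groups beyond the spread between mice (two-sided exact permutation p = 0.543). HLU 5 had the other small library, at 7838277 reads. The 16 bones also differed in marker genes of cell types. All 6 osteocyte markers looked for (Sost, Dmp1, Mepe, Phex, Fgf23 and Pdpn) were detected, with a summed abundance between 179 and 589 RPKM in controls and between 263 and 598 RPKM after HLU. All 7 listed erythroid markers were detected too, at 982 to 2010 RPKM in controls and 497 to 1873 RPKM after HLU. The 6 listed granulocyte markers reached 17333 to 37482 RPKM in controls and 12247 to 44122 RPKM after HLU, and were thus detected in every library. A marker score, the mean of log2 abundance over a list centred on the 16 mice, differed between HLU and control mice by 0.47 for osteocytes (exact permutation p = 0.0696), by -0.54 for erythroid cells (p = 0.0774), by -0.12 for granulocytes (p = 0.650) and by -0.67 for megakaryocytes (p = 0.0219). Over the 12 scores tested the adjusted p of the last was 0.263, and no score passed after adjustment. These are values from one mixture per mouse, in which fewer cells of a type and less RNA per cell cannot be told apart.

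Several Frizzled genes are related closely enough to share stretches of coding sequence, which bears on whether their reads can be separated. The 3 longest exact matches that lie within coding parts, in the transcripts of GENCODE M21 on GRCm38, join Fzd1, Fzd2 and Fzd7, a subgroup of near relatives. Each is printed from 5′ to 3′ on the coding strand. The match of Fzd1 (chr5:4756331-4756377, minus strand) with Fzd2 (chr11:102605740-102605786, plus strand) holds 47 bases. The match of Fzd1 (chr5:4756964-4757010) with Fzd7 (chr1:59483344-59483390, plus strand) holds 47 bases as well, and that of Fzd2 (chr11:102606064-102606101) with Fzd7 (chr1:59484298-59484335) holds 38.
Fzd1 and Fzd2: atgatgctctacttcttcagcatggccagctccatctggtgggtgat
Fzd1 and Fzd7: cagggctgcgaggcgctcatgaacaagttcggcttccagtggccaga
Fzd2 and Fzd7: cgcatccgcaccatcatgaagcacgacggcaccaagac
A read longer than these runs crosses at least 1 difference, and no window of 50 bases was shared by any pair of the 10 genes. The read length and the counting rule were not given in the sources used here.

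Most members are compact genes. Fzd1 (chr5:4753839-4758035, minus strand), Fzd2 (chr11:102604396-102608058, plus), Fzd7 (chr1:59482424-59486955, plus), Fzd9 (chr5:135248938-135251230, minus) and Fzd10 (chr5:128600844-128604093, plus) have 1 exon block each in GENCODE M21, as has Fzd8. Fzd4 (chr7:89404355-89413134, plus) and Fzd5 (chr1:64730558-64737751, minus) have 2 exon blocks. Fzd3 (chr14:65192449-65262463, minus) has 8 and Fzd6 (chr15:39006034-39038188, plus) has 9. Fzd3, Fzd5 and Fzd6 overlap other annotated genes, Fzd5 and Fzd6 on the opposite strand only. The library kit does not mark strand, so reads from bases shared by both genes cannot be assigned by strand. Overlaps were taken from gene bounds, and the shared exon bases were not measured.

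The start regions of the most abundant members are shown because Fzd1, Fzd4 and Fzd7 had an r of 0.53 to 0.70 with each other between mice and Fzd5 had one of -0.10 to 0.09 with these 3, as described further on. Each window holds 250 bases before and 50 after the start of the gene in RefSeq on GRCm38.p6, printed in the direction of transcription. Capitals mark matches, on either strand, to GGGCGG (the GC box of Sp1-type factors), CTTTGA (the core of Tcf and Lef sites), TGTGGT (the core of Runx sites) or TATAAA (the TATA box), and overlapping matches were each counted. The windows are chr7:89404116-89404415 (plus strand) for Fzd4, chr1:59481897-59482196 (plus) for Fzd7, chr5:4758167-4758466 (minus) for Fzd1 and chr1:64737701-64738000 (minus) for Fzd5.
Fzd4: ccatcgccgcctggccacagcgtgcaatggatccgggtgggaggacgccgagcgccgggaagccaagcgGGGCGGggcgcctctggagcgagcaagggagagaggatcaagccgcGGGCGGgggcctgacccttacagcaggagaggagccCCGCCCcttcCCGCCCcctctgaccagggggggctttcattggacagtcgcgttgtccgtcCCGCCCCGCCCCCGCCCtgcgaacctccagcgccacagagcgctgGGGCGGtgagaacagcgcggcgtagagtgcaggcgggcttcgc
Fzd7: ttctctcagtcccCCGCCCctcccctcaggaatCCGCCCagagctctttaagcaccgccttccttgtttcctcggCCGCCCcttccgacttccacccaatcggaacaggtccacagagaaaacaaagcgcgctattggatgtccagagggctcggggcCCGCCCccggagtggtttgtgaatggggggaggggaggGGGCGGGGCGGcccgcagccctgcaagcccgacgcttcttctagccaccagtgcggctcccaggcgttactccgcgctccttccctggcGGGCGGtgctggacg
Fzd1: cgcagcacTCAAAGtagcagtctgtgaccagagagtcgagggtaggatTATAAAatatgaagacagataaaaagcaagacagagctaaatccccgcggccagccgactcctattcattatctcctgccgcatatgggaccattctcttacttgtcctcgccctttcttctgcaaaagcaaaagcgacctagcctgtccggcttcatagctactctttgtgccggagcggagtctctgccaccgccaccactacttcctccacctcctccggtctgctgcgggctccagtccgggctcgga
Fzd5: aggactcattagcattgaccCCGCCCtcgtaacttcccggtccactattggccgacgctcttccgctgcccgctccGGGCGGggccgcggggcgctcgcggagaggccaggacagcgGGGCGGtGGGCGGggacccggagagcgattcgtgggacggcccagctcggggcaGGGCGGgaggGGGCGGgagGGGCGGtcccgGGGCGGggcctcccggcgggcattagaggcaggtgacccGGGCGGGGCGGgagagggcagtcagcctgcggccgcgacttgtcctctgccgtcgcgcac
Fzd4 holds 8 matches to GGGCGG, Fzd7 holds 7 and Fzd5 holds 10, and among all 32851 windows of this length 35.7% hold at least 1. The Fzd1 window holds none and is the only one of the 4 with CTTTGA (1 match, found in 16.003% of all windows) and TATAAA (1 match, found in 13.6%). TGTGGT, found in 16.8% of all windows, occurs in none of the 4. CG dinucleotides number 32 in Fzd4, 24 in Fzd7, 16 in Fzd1 and 38 in Fzd5, against a median of 7 over all windows. Of the 4 windows that of Fzd1 has the fewest matches to the GC box and the fewest CG dinucleotides. The windows of Fzd1 and Fzd7 lie wholly upstream of these genes' bounds in GENCODE M21, so the counts hold for the RefSeq starts. Windows were also matched for Fzd9 and Fzd10.

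Fzd4 was the most abundant member by deposited RPKM, and Fzd7 and Fzd4 were the members whose abundance after HLU passed the unadjusted threshold. Over the 16 mice the order of mean abundance was Fzd4 (7.99 RPKM), Fzd5 (4.16), Fzd1 (3.26), Fzd7 (3.01), Fzd6 (2.73), Fzd8 (1.52), Fzd9 (0.985), Fzd2 (0.442), Fzd3 (0.196) and Fzd10 (0.0700). The first 7 averaged at least 0.5 RPKM and entered the test across features, and Fzd2, Fzd3 and Fzd10 did not. Of these 7, 2 were higher after HLU at an unadjusted p under 0.05 with a change of at least 1.2-fold, and 0 were lower. Of all 16973 features tested 5.87% passed that rule, 1.11% as higher and 4.76% as lower. The median log2 fold change of the 7 was 0.30 and 6 of the 7 values were positive, beside a median of -0.10 over all features. After Benjamini-Hochberg adjustment over all features limma called 0 features at an adjusted p under 0.1, against 1049 with an unadjusted p under 0.05, and the voom method on recovered reads also called 0. No member is therefore reported as changed after correction for multiple testing. After median-of-ratios scaling of the libraries 381 features were higher and 394 lower, against 188 and 808 with RPKM as deposited, and the median over all features was -0.01.

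**Figure D1:**
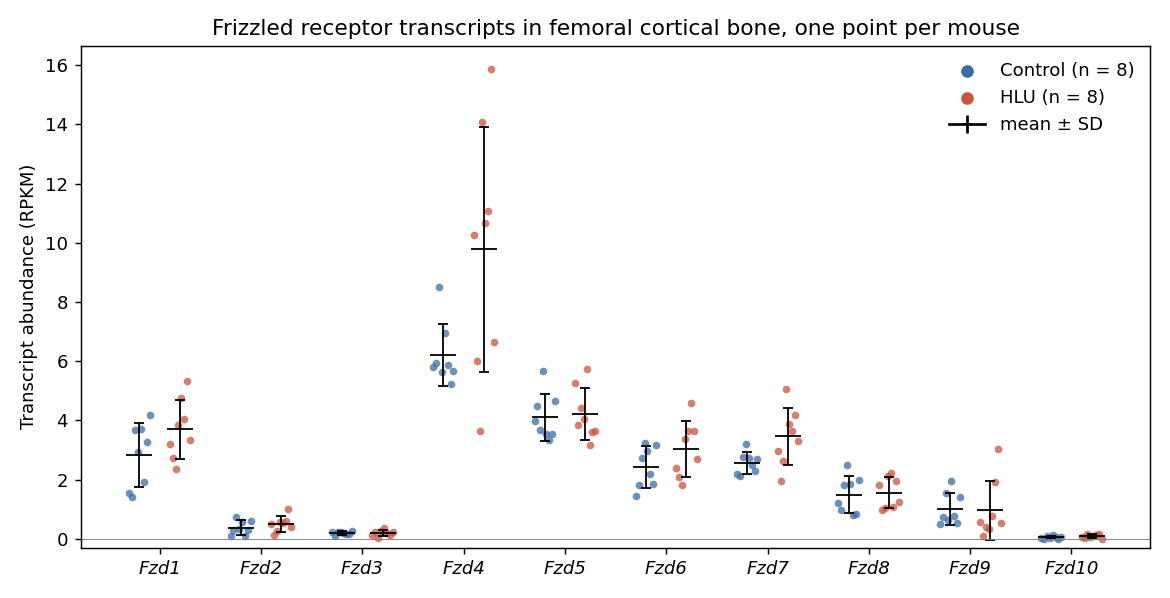
Transcript abundance (RPKM, vertical axis) of the 10 Frizzled genes, 1 point per mouse, control mice in blue and HLU mice in red, with mean ± SD of 8 mice. Fzd4 lies between 5.22 and 8.50 RPKM in controls and spreads from 3.64 to 15.9 RPKM after HLU, and Fzd3 and Fzd10 lie near 0 in both groups.

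Fzd4 binds Norrin as well as Wnt proteins, and with Lrp5 and Tspan12 it is needed for the growth of retinal vessels. Its abundance in controls had a lowest value of 5.22, a median of 5.83 and a highest value of 8.50 RPKM. In HLU mice the lowest value was 3.64, the median 10.5 and the highest 15.9 RPKM. Of the HLU mice, 5 (HLU 1, 4, 5, 6 and 7, at 10.3 to 15.9 RPKM) lay above every control mouse, HLU 2 and HLU 8 lay among the control mice, and HLU 3 lay below all of them. The mean was 6.20 ± 1.05 RPKM in controls and 9.78 ± 4.14 RPKM after HLU (SD of 8 mice per group), and the SD was 3.94 times as large after HLU. The log2 fold change was 0.53 with a standard error of 0.24 (limma, p = 0.044, adjusted p = 0.744), and the two-sided exact permutation test gave p = 0.0603. Under median-of-ratios scaling these became 0.62 and an exact permutation p of 0.0483. The call lay near the threshold and was often lost when 1 mouse was left out. In the fits that each left out 1 mouse the unadjusted p stayed under 0.05 in 5 of 16 (without Control 3, Control 5, HLU 2, HLU 3 or HLU 8), with log2 fold changes from 0.41 (without HLU 7) to 0.71 (without HLU 3), and it was lost without the 2 smallest libraries (0.49).

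The 5 HLU mice with the most Fzd4 were also the 5 whose erythroid marker score, between -1.28 and -0.31, lay below the lowest control mouse at -0.23. HLU 2, HLU 3 and HLU 8 had erythroid scores of 0.57, 0.62 and 0.37, within the range of the control mice, and the 3 highest granulocyte scores of their group. With the erythroid and granulocyte scores as covariates the log2 fold change of Fzd4 was 0.17 with a 95% interval of -0.23 to 0.56 (limma, adjusted p = 0.998). With the megakaryocyte score as a covariate it was 0.12 (-0.40 to 0.63), and with the osteocyte score it was 0.29 (-0.24 to 0.83).

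Fzd7 belongs with Fzd1 and Fzd2 and is known from intestinal stem cells. Among controls it had the smallest spread of any member relative to its mean, with a lowest value of 2.11, a median of 2.596 and a highest value of 3.19 RPKM. In HLU mice the lowest value was 1.97, the median 3.48 and the highest 5.07 RPKM. Again 5 HLU mice lay above every control mouse, but these were HLU 4, 5, 6, 7 and 8, and HLU 2 lay below all control mice. The mean was 2.56 ± 0.361 RPKM in controls and 3.46 ± 0.962 RPKM after HLU (SD of 8 mice per group), with an SD 2.67 times as large after HLU. The log2 fold change was 0.38 with a standard error of 0.16 (limma, p = 0.0320, adjusted p = 0.744, exact permutation p = 0.0317). With the erythroid and granulocyte scores as covariates it was 0.42 with a 95% interval of 0.07 to 0.77 (limma, adjusted p = 0.998), so that the value was as large with those scores in the fit. With the osteocyte score as a covariate it was 0.16 (-0.15 to 0.47) and with the megakaryocyte score 0.10 (-0.23 to 0.43). Leaving out 1 mouse at a time gave 0.30 (without HLU 4) to 0.49 (without HLU 2), with an unadjusted p under 0.05 in 9 of 16 fits. The call was lost without Control 1, Control 2, Control 7, HLU 4, HLU 5, HLU 6 or HLU 7, and without the 2 smallest libraries together (0.32).

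Fzd1, the third member by mean deposited RPKM, had a lowest value of 1.42, a median of 3.10 and a highest value of 4.18 RPKM in controls and 2.36, 3.60 and 5.33 RPKM after HLU. Control 1, Control 2 and Control 6 lay below every HLU mouse, and HLU 5 and HLU 7 lay above every control mouse. The log2 fold change of 0.43 (standard error 0.24, limma, p = 0.0881, exact permutation p = 0.107) did not pass the test. Under median-of-ratios scaling it was 0.52 and passed the unadjusted threshold of limma, with an exact permutation p of 0.0522, and it passed also without Control 8 or without HLU 3. With the erythroid and granulocyte scores as covariates it was 0.61 with a 95% interval of 0.05 to 1.17, and with the osteocyte score it was 0.06 (-0.35 to 0.46).

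Fzd6, which with Fzd3 sets cell polarity in skin and inner ear, ranged from 1.44 to 3.25 RPKM with a median of 2.46 in controls and from 1.82 to 4.599 RPKM with a median of 3.03 after HLU. The groups overlapped, with 4 HLU mice above every control mouse and 2 control mice below every HLU mouse. Its log2 fold change was 0.30 with a standard error of 0.21 (limma, p = 0.169, exact permutation p = 0.180).

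Fzd5, needed for the vessels of yolk sac and placenta, had nearly equal levels in the groups. It ranged from 3.33 to 5.67 RPKM with a median of 3.82 in controls and from 3.18 to 5.74 RPKM with a median of 3.95 after HLU. Its log2 fold change was 0.03 with a 95% interval of -0.26 to 0.33 (limma, p = 0.816, exact permutation p = 0.805). Fzd8, its closest relative, whose loss in mice raises osteoclast numbers, ranged from 0.801 to 2.50 RPKM in controls and from 0.982 to 2.21 RPKM after HLU, with medians of 1.501 and 1.53. Its log2 fold change was 0.09 with a 95% interval of -0.46 to 0.64 (limma, p = 0.729, exact permutation p = 0.714).

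Fzd9, whose loss lowers bone formation in mice, was the only tested member with a negative value with RPKM as deposited. It ranged from 0.487 to 1.96 RPKM with a median of 0.751 in controls and from 0.106 to 3.02 RPKM with a median of 0.563 after HLU. HLU 6 and HLU 7, at 1.92 and 3.02 RPKM, stood above the other HLU mice, which reached at most 0.779 RPKM, and 3 HLU mice lay below every control mouse. The log2 fold change was -0.40 with a 95% interval of -1.40 to 0.59 (limma, p = 0.404, exact permutation p = 0.438). This value moved with single mice and with the pseudocount, to -0.26 without Control 5, -0.14 without HLU 2, -0.70 without HLU 7 and -0.12 at a pseudocount of 1. With the osteocyte score as a covariate it was -1.002 with a 95% interval of -1.95 to -0.05 (limma, adjusted p = 0.966).

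Fzd2, Fzd3 and Fzd10 were detected at few reads. Fzd2 ranged from 0.0839 to 0.744 RPKM in controls and from 0.134 to 1.01 RPKM after HLU, which rested on 6 to 64 reads per mouse (exact permutation p = 0.307). Fzd3, which guides growing axons, rested on 2 to 13 reads per mouse and had a median of 0.199 RPKM in controls and 0.209 RPKM after HLU (exact permutation p = 0.918). Fzd10 had 0 to 5 reads per mouse and was listed at 0 in Control 2, Control 7 and HLU 8. In its case 3 reads correspond to 0.0864 to 0.261 RPKM, so no fold is given, and a difference was not detectable at this depth. The counts of Fzd10 assume the shortest length that makes them whole, 1625 bases, and would be doubled at the annotated 3250 bases.

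**Figure D2:**
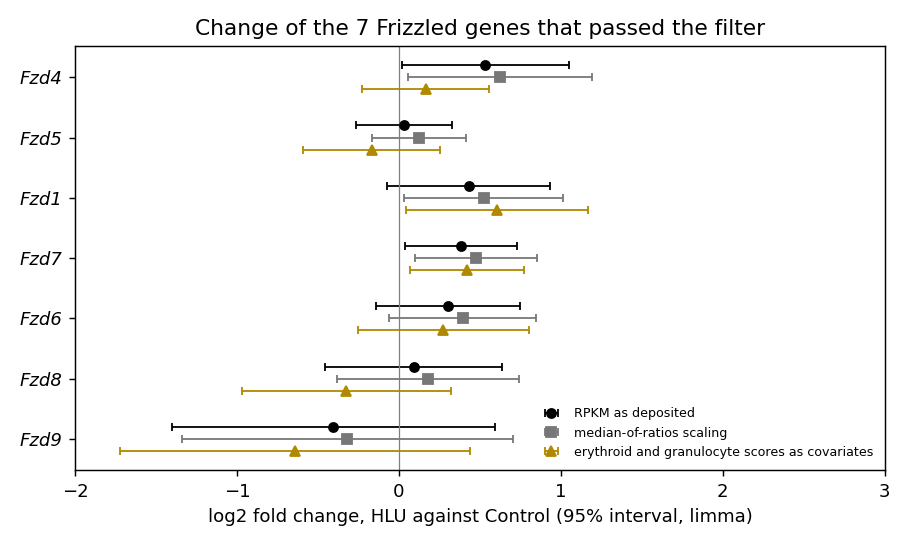
Log2 fold change of HLU against control mice (horizontal axis) with 95% intervals from limma for the 7 Frizzled genes that passed the filter, with RPKM as deposited (circles), after median-of-ratios scaling (squares) and with erythroid and granulocyte scores as covariates (triangles). Fzd4 moves from 0.53 to 0.17 with the covariates, Fzd7 moves from 0.38 to 0.42, and the interval of Fzd9 is the widest.

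The summed abundance of the family was 21.2 ± 3.91 RPKM in controls and 27.5 ± 7.92 RPKM after HLU (SD of 8 mice per group). It lay above every control mouse in 5 HLU mice, and HLU mice ranged from 16.8 to 38.9 RPKM against 16.9 to 25.8 RPKM in controls. The log2 difference of 0.34 did not pass the test (two-sided exact permutation p = 0.0889), and was 0.43 with an exact permutation p of 0.0531 under median-of-ratios scaling. Without HLU 2 the difference was 0.41 (exact permutation p = 0.0398) and without HLU 3 it was 0.43 (exact permutation p = 0.0291).

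By deposited RPKM Fzd4 and Fzd5 held the largest mean shares of the family. Fzd4 held 29.6% ± 4.58 of the summed Frizzled RPKM in controls and 34.3% ± 6.45 after HLU, a difference of 4.64 percentage points (SD of 8 mice per group, exact permutation p = 0.119). Fzd5 held 19.7% ± 4.04 and 16.6% ± 5.81, a difference of -3.13 points (exact permutation p = 0.228). Fzd1, Fzd7 and Fzd6 held mean shares between 11.1% and 13.6% in either group. No member's share differed between groups at an exact permutation p under 0.05, and shares within a mouse are not independent since they add up to 100%. Fzd9 had a lower share than every control mouse in 6 of 8 HLU mice, with means of 4.57% and 3.12% (exact permutation p = 0.201).

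Neighbours in the order of abundance were often close. Fzd4 was above Fzd5 in 14 of 16 mice, with a mean log2 ratio of 0.84 ± 0.64 (SD over mice), and Fzd6 was above Fzd8 in all 16, with a ratio of 0.82 ± 0.43. Fzd1 was above Fzd7 in 10 of 16 mice (0.08 ± 0.38) and Fzd7 above Fzd6 in 11 of 16 (0.16 ± 0.27). Fzd5 was above Fzd1 in 13 of 16 mice (0.40 ± 0.59), Fzd8 above Fzd9 in 13 (0.81 ± 0.95) and Fzd2 above Fzd3 in 13 (0.76 ± 0.81). Except for Fzd4 over Fzd5 and Fzd6 over Fzd8, the mean ratio of these pairs was smaller than its SD over mice. Whether the 2 genes of a pair differ was not tested.

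The order among the first members depends on the gene length by which reads were divided. The length implied by the files was 3685 bases for Fzd4 against 6720 bases of combined exons in GENCODE M21, and 8933 bases for Fzd7 against 4532. For Fzd5 the lengths were closer, at 7423 and 6915 bases. With recovered reads and no division by length Fzd5 had the largest mean share (26.3%), followed by Fzd4 (23.4%) and Fzd7 (21.95%). With the GENCODE lengths Fzd7 was first (26.02%), followed by Fzd5 (20.6%) and Fzd4 (18.7%). The reads were counted on the authors' gene models, whose lengths differ from those of GENCODE M21. This division therefore joins reads and lengths that cover unlike stretches, and which order is right was not tested. Fzd4 was the highest member in 14 of 16 mice by deposited RPKM, in 4 by reads and in 1 by reads per GENCODE length, and Fzd7 was the highest in 0, 1 and 13. A fold change between groups of mice is taken within 1 gene and does not depend on its length.

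**Figure D3:**
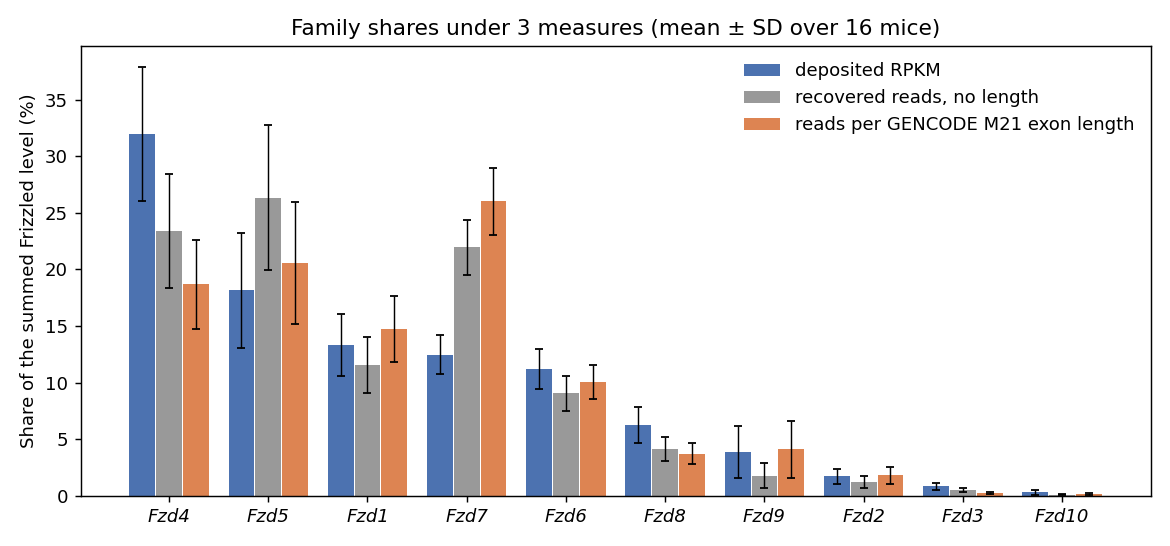
Share of each Frizzled gene in the summed Frizzled level (percent, vertical axis) by deposited RPKM (blue), by recovered reads (grey) and by reads per GENCODE M21 exon length (orange), as mean ± SD over 16 mice. Fzd4 stands at 32.0% by the first measure and 18.7% by the last, and Fzd7 at 12.5% and 26.02%.

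At the median numbers of reads of Fzd4 (368) and Fzd7 (380), counting alone gives a coefficient of variation of 5.21% and 5.13%. The values of Fzd4 varied by 16.9% among control mice and 42.3% among HLU mice and those of Fzd7 by 14.1% and 27.8%. Fzd5, at a median of 469 reads, varied by 19.2% and 20.8%, about equally in the groups. Fzd9 varied by 54.3% and 104%, at a median of 23.5 reads for which counting alone gives 20.6%.

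Several of the 7 tested members were positively correlated from mouse to mouse. Correlations were taken on log2(RPKM + 0.1) centred within each group, so that the difference between groups does not enter, with 100000 permutations of the mice within groups and adjustment over the 21 pairs. The median Pearson's r was 0.60, 18 of 21 were positive, and 12 had an adjusted p under 0.05, all of them among the 15 pairs without Fzd5, where r ranged from 0.37 to 0.79. By Spearman's rho 6 of 21 pairs had an adjusted p under 0.05, and 0 of these included Fzd4. The share of such pairs among other genes was not computed, so these counts do not set the family apart. Fzd9 passed by Pearson's r with Fzd1 and Fzd6, but not with Fzd4 (adjusted p = 0.0778, permutation), Fzd7 (0.0983) or Fzd8 (0.201). Fzd1 and Fzd6 were the closest pair (r = 0.793, permutation p = 0.00051, adjusted p = 0.00662, Spearman's rho = 0.759, permutation p = 0.00172). That r was 0.740 when the 2 mice with the most extreme Fzd1 values were left out, and it was 0.776 in controls and 0.873 after HLU. Fzd6 and Fzd7 followed (r = 0.767, permutation p = 0.00063, adjusted p = 0.00662, rho = 0.797, permutation p = 0.00055), with r of 0.757 without the 2 farthest mice. Fzd4 and Fzd7, the members past the unadjusted threshold, had an r of 0.702 (permutation p = 0.0164, adjusted p = 0.0344, rho = 0.653, permutation p = 0.0176, adjusted p of rho = 0.0521), which was 0.713 without the 2 farthest mice, 0.769 after HLU and 0.305 in controls.

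Fzd5 had an r of -0.01 with Fzd1, -0.10 with Fzd4, 0.01 with Fzd6, 0.09 with Fzd7 and -0.23 with Fzd9. Its one larger value was with its relative Fzd8 (r = 0.555, permutation p = 0.0310, adjusted p = 0.05004, rho = 0.532, permutation p = 0.0443), and it was 0.312 without the 2 farthest mice. Whether Fzd5 differs from the others in its correlations was not tested.

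The median correlation between members was lower with marker scores regressed out, and the cause of this was not tested. After the erythroid and granulocyte scores were regressed out, the median r over the 21 pairs was 0.22, and 1 pair, Fzd5 with Fzd8 (r = 0.726), had an adjusted p under 0.05. Fzd1 with Fzd6 kept an r of 0.626 and Fzd7 with Fzd8 one of 0.588, while Fzd4 with Fzd7 had 0.216. Within one group of 8 mice, 1 pair passed in controls (Fzd6 with Fzd7, r = 0.910) and 0 after HLU, where the median r was 0.69. Without the smallest libraries, Control 2 and HLU 5, 7 pairs passed and the median r was 0.57.

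**Figure D4:**
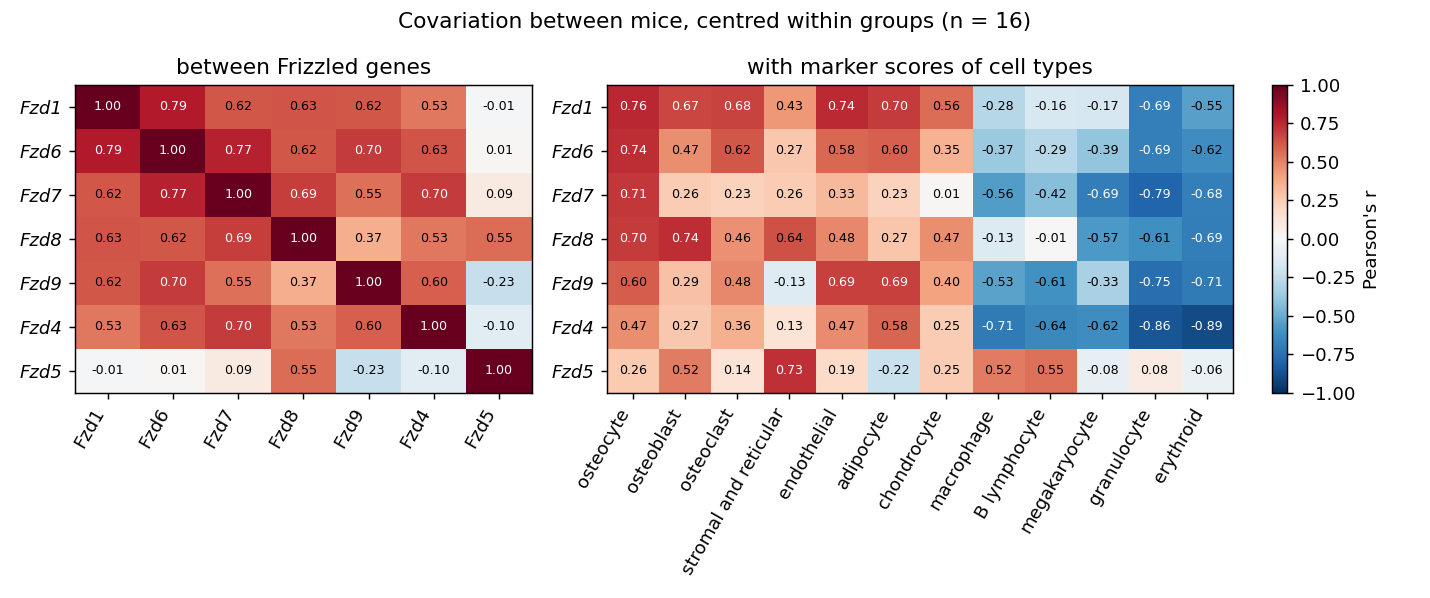
Pearson's r over 16 mice, on values centred within groups, between the 7 tested Frizzled genes (left) and between them and 12 marker scores (right), from -1 (blue) to 1 (red). On the left, the values of Fzd5 are between -0.23 and 0.09 except with Fzd8 (0.555), and Fzd4 has the strongest negative values with erythroid (-0.89) and granulocyte (-0.86) markers.

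Each Frizzled gene was also set against 12 marker scores, which gave 84 relations, 32 of them with an adjusted p under 0.05 by Pearson's r and 25 by Spearman's rho. The erythroid and granulocyte scores were each inversely related to 6 of the 7 members at an adjusted p under 0.05 (3 and 5 by rho), all but Fzd5. The r of Fzd4 was -0.891 with the erythroid score (permutation p = 3e-05, adjusted p = 0.00252, rho = -0.853, permutation p = 0.00085), with -0.864 without the 2 farthest mice, -0.792 in controls and -0.921 after HLU. With the granulocyte score it was -0.859 (permutation p = 0.00039, adjusted p = 0.0155, rho = -0.838, permutation p = 0.00127), with -0.843 without the 2 farthest mice. For the other 5 the r with the granulocyte score was -0.795 (Fzd7), -0.752 (Fzd9), -0.686 (Fzd1 and Fzd6) and -0.613 (Fzd8), and with the erythroid score it ranged from -0.71 (Fzd9) to -0.55 (Fzd1). Whether Fzd4 differs from them in these correlations was not tested. The share of all features related to each of the 12 marker scores was not computed. These counts therefore do not show a trait particular to Frizzled genes.

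The osteocyte score was positively related to 5 of the 7 members (also 5 by rho), Fzd1, Fzd6, Fzd7, Fzd8 and Fzd9. The r of Fzd1 with the osteocyte score was 0.755 (permutation p = 0.00241, adjusted p = 0.0223, rho = 0.659, permutation p = 0.0128, 0.606 without the 2 farthest mice), that of Fzd6 was 0.738 (permutation p = 0.00165, adjusted p = 0.0196, rho = 0.729, permutation p = 0.00329, 0.730 without them) and that of Fzd7 was 0.707 (permutation p = 0.00074, adjusted p = 0.0155, rho = 0.753, permutation p = 0.0008, 0.751 without them). Fzd8 had an r of 0.696 (permutation, adjusted p = 0.0265) and Fzd9 one of 0.602 (permutation, adjusted p = 0.0322). Fzd1 passed also with the osteoblast (0.668), osteoclast (0.677) and adipocyte (0.700) scores, and followed the endothelial score (r = 0.743, permutation p = 0.0012, adjusted p = 0.0196, rho = 0.738, permutation p = 0.00084, 0.744 without them). Fzd8 followed the osteoblast score (r = 0.741, permutation p = 0.00344, adjusted p = 0.0223, rho = 0.606, permutation p = 0.0211, adjusted p of rho = 0.0566, 0.707 without them).

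Fzd5 had values near 0 with the erythroid score (r = -0.06) and the granulocyte score (r = 0.08). It followed the stromal and reticular score of Cxcl12, Lepr, Pdgfra, Pdgfrb and Kitl (r = 0.727, permutation p = 0.00187, adjusted p = 0.0196, rho = 0.635, permutation p = 0.0128), which was 0.445 without the 2 farthest mice and so rests in part on them. Fzd8 also passed with that score by r (0.637, permutation, adjusted p = 0.0299), but not by rho (adjusted p = 0.0566). The r of Fzd5 with the macrophage score was 0.517 (permutation p = 0.0542, adjusted p = 0.108, rho = 0.594, permutation p = 0.0218), and 0.321 without the 2 farthest mice. Fzd4 was the member that passed with the macrophage score (r = -0.705, permutation, adjusted p = 0.0299).

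**Figure D5:**
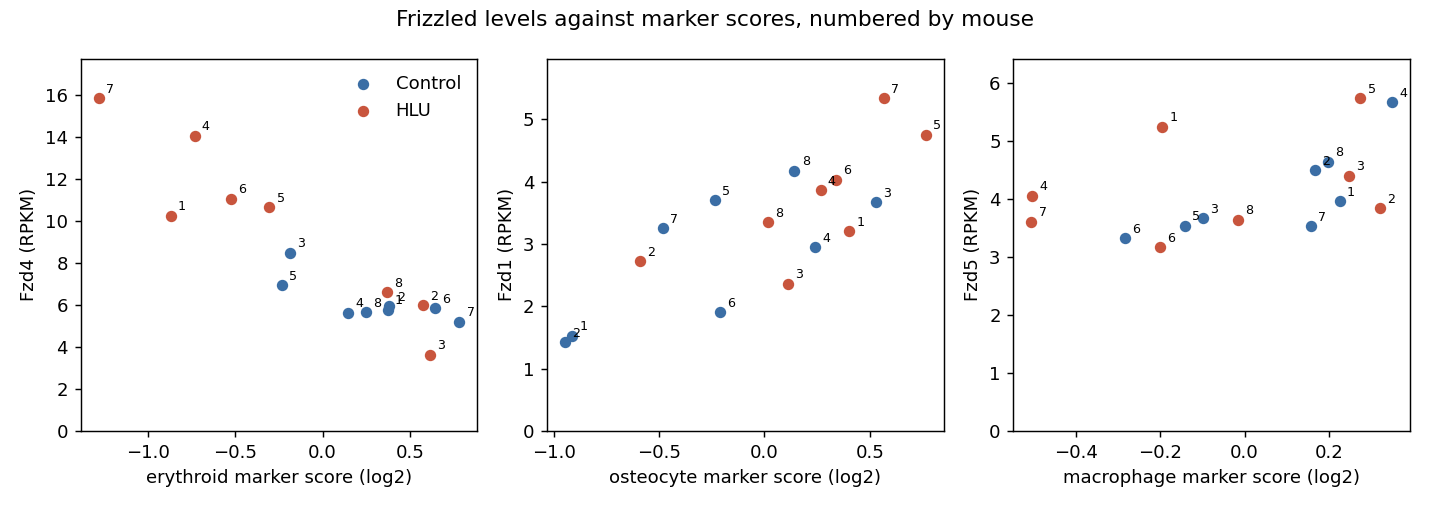
Deposited RPKM of Fzd4, Fzd1 and Fzd5 (vertical axes) against the erythroid, osteocyte and macrophage marker scores (horizontal axes, log2, centred on 16 mice), 1 point per mouse with its number, control mice in blue and HLU mice in red. HLU 1, 4, 5, 6 and 7 combine the lowest erythroid scores with the highest Fzd4 values.

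The genes whose values ran most nearly parallel to a member were sought among 13835 features that averaged 1 RPKM or more, on values centred within groups. For Fzd4 they were Kcmf1 (r = 0.905), Limch1 (0.902), Lmbr1 (0.881), Ccser2 (0.880) and Pygo1 (0.875), of which Pygo1 encodes a Pygopus protein that works with β-catenin in the nucleus. For Fzd1 they were Dlx5 (0.941), a transcription factor of osteoblasts, with Ptpn14 (0.940), Sec24d (0.940), Amotl2 (0.939) and Gm15417 (0.938).

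The other lists held 45 genes that passed the filter, with Smo of the Hedgehog pathway among them. Of these 2 (4.44%) passed the unadjusted rule, a share near the 5.87% of all features. Of 19 Wnt ligands, 7 passed the filter, and 0 of them were called, with positive values in 7 and a median log2 fold change of 0.18. The most abundant ligand was Wnt16, known from cortical bone, at 3.87 ± 1.92 RPKM in controls and 5.15 ± 2.48 RPKM after HLU (SD of 8 mice per group, exact permutation p = 0.271). Of 10 listed coreceptors and membrane partners 7 passed the filter and 0 were called, with Ryk, a receptor kinase for Wnt proteins, as the most abundant at 19.8 ± 4.05 and 24.03 ± 5.14 RPKM (exact permutation p = 0.0922). Of 9 genes that set the turnover of Frizzled receptors 4 passed the filter and 1 was called as higher after HLU. This was Rspo3, an R-spondin that keeps Frizzled receptors at the cell surface, at 2.6004 ± 0.946 and 3.48 ± 0.708 RPKM (log2 fold change 0.47, limma, p = 0.0450, adjusted p = 0.744, exact permutation p = 0.0491). That call was kept in 7 of 16 fits that left out 1 mouse, and the value was -0.10 with the erythroid and granulocyte scores as covariates.

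Of 5 secreted proteins with a Frizzled-type cysteine-rich domain, which bind Wnt proteins outside the cell, 4 passed the filter and 0 were called, with a median log2 fold change of 0.46. Sfrp4 was the most abundant, at 8.36 ± 3.15 and 10.9 ± 3.19 RPKM (exact permutation p = 0.0908). Of 19 listed transducers inside the cell 17 passed the filter and 0 were called, with a median of -0.03. Rhoa, a GTPase of the cytoskeleton, was the most abundant of them, at 163 ± 31.2 and 151 ± 34.7 RPKM (exact permutation p = 0.452). Of 10 target genes 5 passed the filter and 1, Myc, was called as lower after HLU, at 4.46 ± 0.730 and 3.20 ± 0.871 RPKM (log2 fold change -0.49, limma, p = 0.00596, adjusted p = 0.744, exact permutation p = 0.00730). That call was kept in all 16 fits that left out 1 mouse and was lost with the erythroid and granulocyte scores as covariates (-0.15). Smo, the Hedgehog transducer of the same receptor class, was at 6.66 ± 1.96 and 6.66 ± 1.56 RPKM (exact permutation p = 0.902). None of these lists held a feature with an adjusted p under 0.1.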

How the data were processed

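RNA of femoral cortical bone was sequenced from 8 control and 8 HLU mice, and per the labels each library is 1 mouse. The authors aligned TruSeq reads with TopHat2 (to mm9, per the submitters' processing notes) and deposited RPKM for each mouse. The counting tool, annotation and gene lengths were not given in the sources used here. The submitters' notes also name DESeq2, which needs counts. RPKM corrects for gene length and library size, not for other differences between libraries.

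The 16973 of 36829 features that averaged 0.5 RPKM or more were compared on log2(RPKM + 0.1) with limma 3.58.1 (R 4.3.3, variance trend), and a fold change on this scale understates that of low genes. Calls needed a change of at least 1.2-fold at either an unadjusted p under 0.05 or a Benjamini-Hochberg p under 0.1. Single values were compared by two-sided exact permutation over 12870 splits (smallest p 0.000155). Python 3.11.15, numpy 2.4.6, scipy 1.17.1, pandas 2.3.3 and matplotlib 3.10.9 were used. Whole reads were recovered (tolerance 0.01) for 100% of features kept, with 1 length per feature. Scripts were tested on simulated data. Intervals from reads cover counting error only.

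The genes named are the 10 members, the 5 features closest to each of Fzd4, Fzd5 and Fzd1, and from each pathway list those past the unadjusted rule or else the most abundant. The features closest to Fzd5 are not reported here. The members and all lists were chosen with earlier results of these data known. Muscle markers were not analysed here. GENCODE M21 (GRCm38) gave positions and exon lengths, and coordinates are on GRCm38, not on mm9. RefSeq windows were matched for 6 members, and proteins were not analysed here. Alternatives were other pseudocounts (1 and 0.01), other minimums (none and 2 RPKM), median-of-ratios and quantile scaling, voom on recovered reads, marker scores as covariates, a replicate block, read shares, and leaving out libraries. Pairing by replicate number was checked and is described in the closing section.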

Additional observations from a re-analysis of the deposited data

How the results depend on the processing

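The fold changes and shares of the 7 tested members gave 320 values under alternatives, of which 264 kept their direction and side of the unadjusted threshold, 26 lost the threshold, 8 passed it newly and 22 changed sign. Only the fold changes of Fzd4 and Fzd7 had passed the threshold and could lose it. Fzd4 kept it in 5 of 16 fits with 1 mouse left out and in 7 of 12 other fits. Fzd7 kept it in 9 of 16 and in 9 of 12. No fold change of a member passed an adjusted p of 0.1 in any of the fits run. The cause of these shifts was not tested.

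Across all features, 604 were called with the erythroid and granulocyte scores as covariates, and 588 (without HLU 7) to 1748 (without HLU 2) with 1 mouse left out, where leaving out Control 6 (649), Control 7 (659) or HLU 1 (629) also moved the 996 calls by over 1.5 times. At an adjusted p under 0.1 there was 1 call with no minimum and 0 to 1 with 1 mouse left out (1 without HLU 2). Voom on recovered reads called 183 features as higher and 915 as lower, and 0 after adjustment.

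Changes of sign in single values occurred for Fzd5, which was -0.17 with those scores, -0.0112 without the 2 smallest libraries, -0.0324 to 0.101 with 1 mouse left out and -0.0355 with the osteocyte score. Fzd8 was -0.33, -0.0542, -0.0118 to 0.207 and -0.27 in the same order, and -0.30 with the megakaryocyte score. Fzd6 was -0.0122 with the osteocyte score. Rspo3 was -0.102 with the erythroid and granulocyte scores. The osteocyte and megakaryocyte covariates and the GENCODE lengths were chosen after seeing the data. The summed difference ranged from 0.26 to 0.43 with 1 mouse left out. The Fzd1 share difference was -0.259 points without the 2 smallest libraries and ranged from -0.125 to 1.33 with 1 mouse left out, and that of Fzd6 was 0.00344 points by reads and ranged from -0.710 to 0.188. Mean shares by reads were 23.4% (Fzd4), 26.3% (Fzd5) and 21.95% (Fzd7), and by GENCODE lengths 18.7% (Fzd4) and 26.02% (Fzd7). Pairs of members with an adjusted p under 0.05 by r numbered 1 with scores regressed out (median r 0.22), 1 in control mice, 0 in HLU mice and 7 without the 2 smallest libraries.

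Deviations of mice with the same replicate number had an r between -0.17 and 0.51, with 1 of 8 numbers closest to its own. The main fits used no pairing by number, and these values cannot exclude one. With the replicate block, the 95% interval was -0.07 to 1.13 for Fzd4, which lost the unadjusted threshold, and 0.08 to 0.69 for Fzd7, and 199 features were higher, 840 lower (1039 in all) and 0 called after adjustment. Depth limits Fzd2, Fzd3 and Fzd10 most.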

Other observations

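The marker scores not given with the Frizzled values differed between HLU and control mice by 0.38 for adipocytes (exact permutation p = 0.232), 0.10 for endothelial cells (p = 0.332), 0.06 for osteoclasts (p = 0.774), 0.02 for stromal and reticular cells (p = 0.833), -0.05 for osteoblasts (p = 0.848), -0.14 for macrophages (p = 0.317), -0.25 for chondrocytes (p = 0.504) and -0.29 for B lymphocytes (p = 0.341). Two-sided exact permutation tests over 8 against 8 mice were used, and none of these 8 values passed 0.05. Calcr, Lep, Matn1 and Col9a1 were listed in the files and fell under the filter of 0.5 RPKM.

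The ratio of Fzd4 to Fzd5 within a mouse ran from 0.827 to 4.39. Its mean log2 value was 0.60 ± 0.39 in controls and 1.10 ± 0.78 after HLU (SD of 8 mice per group), a difference of 0.50 (two-sided exact permutation p = 0.125).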
